A study of Mus musculus with 26 samples.

Results

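Mouse oocytes that had lost Dnmt3a during growth were compared with wild-type oocytes of the same sequencing batch. Of the 26 libraries of the table, 4 made up the comparison: both libraries of the Dnmt3a knockout and the 2 wild-type libraries that the labels place in batch 3. Polyadenylated RNA was sequenced from pools of 10 oocytes at the germinal vesicle (GV) stage, the fully grown state before meiosis resumes. Dnmt3a KO oocytes (replicates 1 and 2) had floxed Dnmt3a alleles and Zp3-Cre, a Cre recombinase driven by the promoter of an egg-coat gene that is active in growing oocytes. DKO oocytes (replicates 1 and 2) had floxed Dnmt3a, Zp3-Cre, and in addition floxed sites around the low-complexity domain (LCD) of the dioxygenase Tet3. LCD KO oocytes (replicates 6 and 7 in batch 3) had the floxed Tet3 LCD and Zp3-Cre, and the libraries labelled Tet3 KO (replicates 1 and 2) are given there as floxed Tet3 with Zp3-Cre, a label that their own Dnmt3a and Tet3 levels, below, go against. WT oocytes (replicates 5 and 6 in batch 3) carried the floxed Tet3 LCD without Cre. Loss of Dnmt3a, the floxed alleles (Dnmt3a in Dnmt3a KO, the Tet3 LCD in WT), the Cre transgene and the mouse line therefore cannot be told apart in the comparison of Dnmt3a KO with WT. The labels used here give no age of the animals. The other libraries entered only as a source of spread.

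Dnmt3a is a de novo DNA methyltransferase. With its catalytically inactive partner Dnmt3l it lays down methylation at CpG sites while the oocyte grows, chiefly across the bodies of transcribed genes and at the control regions of maternally imprinted genes. Methylation at a promoter rich in CpG is a classical mark of a silent gene, and germline genes are a well-known class that somatic cells silence in this way. Transcription and methylation are thus linked in both directions in the growing oocyte, and the comparison addressed which stored transcripts differ when the enzyme is lost. Methylation itself was not analysed here.

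The 4 libraries held 2558479 and 4144414 counts in Dnmt3a KO and 3030716 and 3292247 counts in WT, with 13761 to 14535 genes detected. The p-values below measure the spread between pools of 10 oocytes, which the labels call biological replicates; the animals behind a pool are not stated. The 2 libraries of a group differed from each other well beyond counting noise (chi-square over its degrees of freedom, 18.03 in Dnmt3a KO and 11.8 in WT). All 14 oocyte markers, which include the egg-coat genes Zp1, Zp2 and Zp3, were present, with summed levels of 29740 and 24431 CPM in Dnmt3a KO and 31753 and 27193 CPM in WT (CPM, counts scaled for library size and composition). The 16 granulosa and cumulus markers summed to 61.1 and 73.6 CPM in Dnmt3a KO and 73.7 and 65.2 CPM in WT, with Foxl2, Amhr2 and Ptx3 at 0. The 11 theca and stroma markers summed to 24.1 and 28.9 CPM in Dnmt3a KO and 13.3 and 17.8 CPM in WT, with Pdgfra and Lum at 0; their part in the results below was not tested. The 8 blood and immune markers summed to at most 2.53 CPM. The 5 endothelium markers summed to 59.2 and 82.0 CPM in Dnmt3a KO and 71.5 and 81.6 CPM in WT, with Cdh5 and Emcn at 0. The 2 columns labelled TKO were identical to those labelled Tet3 KO in every feature and were left out.

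Dnmt3a, the targeted gene, was lower in both knockout libraries. Its level was 133 and 108 CPM in Dnmt3a KO, against 312 and 349 CPM in WT, and the groups did not overlap. The log2 fold change was -1.46 ± 0.21 (SE; adjusted p = 0.000351, quasi-likelihood F test of edgeR with Benjamini-Hochberg adjustment over all genes tested). In the independent pair of groups, Dnmt3a stood at 100 and 97.9 CPM in DKO and at 416 and 366 CPM in LCD KO. The remaining counts could not be divided between exons, since the table gives 1 count per gene and the labels do not say which exons were floxed. The libraries labelled Tet3 KO went against their label, with Dnmt3a as low as in Dnmt3a KO, at 143 and 105 CPM, and Tet3 no lower than in WT, at 263 and 359 CPM. Tet3 stood at 236 and 377 CPM in Dnmt3a KO and at 158 and 221 CPM in WT, and the change did not pass (log2 fold change 0.70 ± 0.34, adjusted p = 0.519).

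In batch 3 the Cre transgene followed the labels, whereas LCD KO 4 and 5 of batch 2 had 0 counts of it. The row of the table that holds Cre, RGC-CRE, had 58 and 89 counts in Dnmt3a KO and 0 in both WT libraries, which is at least 45.9-fold higher against a floor of 3 counts over the 2 WT libraries. Mt1, a metal-binding metallothionein, moved with it. Mt1 stood at 283 and 184 CPM in Dnmt3a KO, against 0.949 and 1.08 CPM in WT (log2 fold change 7.80 ± 0.39, adjusted p = 4.29e-13). Every other group of batch 3 that carried Cre had a similar level of Mt1, at 193 and 276 CPM in DKO, 224 and 174 CPM in LCD KO, and 198 and 192 CPM in the libraries labelled Tet3 KO. Mt1 and RGC-CRE were therefore set aside in the counts of members below.

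Across the transcriptome few genes were called, and with 2 libraries a group mainly large changes could pass. A gene that was not called is not shown to be unchanged. Of 11794 genes tested, 63 were called at an adjusted p below 0.05 (0.534%), 31 higher in Dnmt3a KO (0.263%) and 32 lower (0.271%), and 1187 had an unadjusted p below 0.05. The median absolute log2 fold change of the called genes was 2.00, and 60 of the 63 changed at least 2-fold. The median of all genes was 0.00 with an interquartile range of -0.26 to 0.30. Without Mt1 and RGC-CRE, 61 genes remained, 29 higher and 32 lower. All 61 had both Dnmt3a KO libraries outside both WT libraries of batch 3, a separation that 33.6% of all genes tested also showed. In 47 of the 61 the Dnmt3a KO libraries also lay outside all 6 WT libraries of the 3 batches, against 13% of all genes. The 61 were called on 2 of these 6 WT libraries, so the 2 shares are not a like comparison. Of all genes tested, 3968 were separate from WT of batch 3, and 1538 of these lay outside all 6. In their higher group, 16 of the 61 reached 100 CPM and 19 stayed under 20 CPM. The count of calls was 29 (15 higher and 14 lower) without Dnmt3a KO 2, the deepest of the 4 libraries, and 15 higher against 28 lower without WT 6, and 19 higher against 29 lower without WT 5. Without the filter on low counts it was 210, of which 140 were higher, and DESeq2 called 115.

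**Figure D1:**
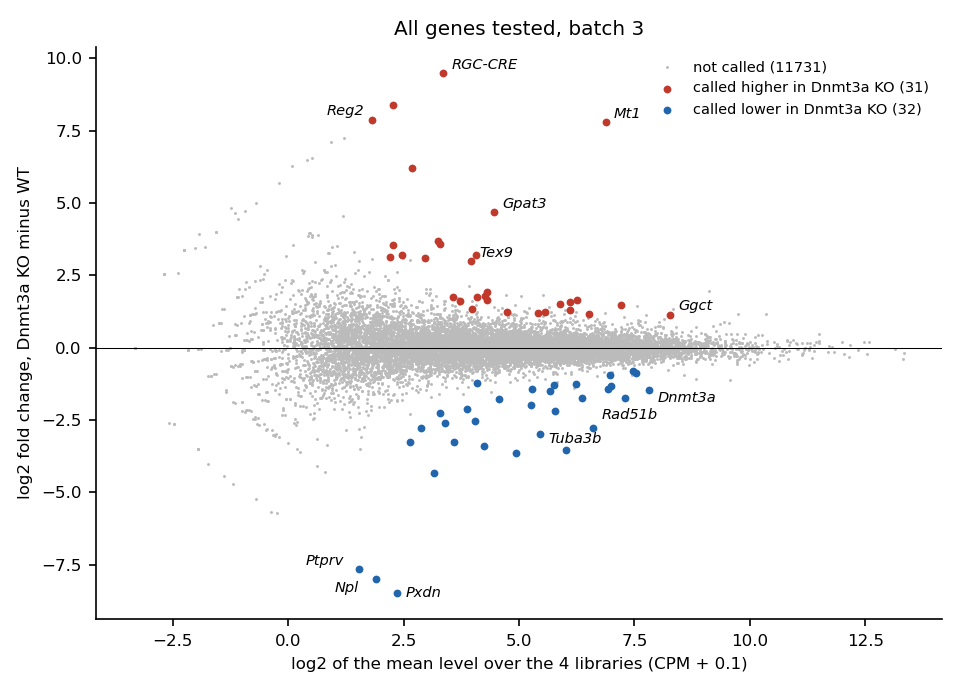
Each point is 1 of 11794 genes; the horizontal axis is the log2 of the mean level over the 4 compared libraries (CPM + 0.1) and the vertical axis the fitted log2 fold change, Dnmt3a KO minus WT. Red points are the 31 genes called higher and blue points the 32 called lower; fitted fold changes of genes with a group at 0, such as Pxdn and Reg2, depend on the prior count of the fit.

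The promoter windows of the 2 largest named falls, Pxdn and Npl, and of the 2 largest named rises, Reg2 and Mt1, are shown because Dnmt3a acts on CpG sites. Mt1 is shown by that rule only: it was high in every Cre group of batch 3 and was set aside above. In LCD KO, with Dnmt3a at 416 and 366 CPM, Mt1 stood at 224 and 174 CPM. The window of Gpat3 was added after its values were seen, as the next largest named rise. The windows are those of RefSeq on GRCm38.p6, from 250 bases before to 50 bases after the start, in the sense of the gene, with each CG in capitals. They lie at chr12:29937786-29938085 (plus strand) for Pxdn, chr1:153549665-153549964 (minus strand) for Npl, chr6:78404905-78405204 (plus strand) for Reg2, chr8:94178839-94179138 (plus strand) for Mt1 and chr5:100845979-100846278 (plus strand) for Gpat3.
Pxdn: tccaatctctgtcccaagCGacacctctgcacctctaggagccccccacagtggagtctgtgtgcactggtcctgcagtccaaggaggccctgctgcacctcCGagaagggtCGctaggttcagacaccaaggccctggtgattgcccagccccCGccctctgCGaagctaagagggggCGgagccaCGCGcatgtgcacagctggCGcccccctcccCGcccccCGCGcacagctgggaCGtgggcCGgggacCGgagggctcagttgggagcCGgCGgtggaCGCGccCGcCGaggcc
Npl: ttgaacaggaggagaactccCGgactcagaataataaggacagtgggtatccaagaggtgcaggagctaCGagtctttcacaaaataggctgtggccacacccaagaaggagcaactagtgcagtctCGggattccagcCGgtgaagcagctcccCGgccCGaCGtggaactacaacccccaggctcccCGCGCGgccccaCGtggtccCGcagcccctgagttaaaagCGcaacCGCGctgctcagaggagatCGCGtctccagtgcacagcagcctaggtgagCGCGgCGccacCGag
Reg2: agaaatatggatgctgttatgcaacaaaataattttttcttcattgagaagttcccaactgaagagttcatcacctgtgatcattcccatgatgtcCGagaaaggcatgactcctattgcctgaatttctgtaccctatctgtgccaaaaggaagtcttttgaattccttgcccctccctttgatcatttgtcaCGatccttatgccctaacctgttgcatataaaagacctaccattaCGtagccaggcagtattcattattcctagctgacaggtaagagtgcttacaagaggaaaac
Mt1: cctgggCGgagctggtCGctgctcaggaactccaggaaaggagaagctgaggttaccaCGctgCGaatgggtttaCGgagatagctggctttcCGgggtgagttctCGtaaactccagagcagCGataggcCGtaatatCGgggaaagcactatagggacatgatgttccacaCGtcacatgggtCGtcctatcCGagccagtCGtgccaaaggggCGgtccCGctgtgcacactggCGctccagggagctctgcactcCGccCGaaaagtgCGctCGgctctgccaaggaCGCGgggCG
Gpat3: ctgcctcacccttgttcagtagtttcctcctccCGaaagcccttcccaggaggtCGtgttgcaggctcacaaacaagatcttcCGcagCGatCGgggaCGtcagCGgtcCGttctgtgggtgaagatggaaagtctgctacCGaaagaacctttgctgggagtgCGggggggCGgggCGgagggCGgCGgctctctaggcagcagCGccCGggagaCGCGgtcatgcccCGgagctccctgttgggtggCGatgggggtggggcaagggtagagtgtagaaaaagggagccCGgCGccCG
The windows of Pxdn and Npl, both undetected in the knockout, hold 21 CG each. Those of Mt1 and Gpat3 hold 24 and 23, and that of Reg2 only 3. Of all 32851 windows of the RefSeq table, 94.57% hold at least 1 CG on the strand shown, which is the same on both strands. Windows were found for 25 of the 31 genes called higher, with a median of 16.0 CG, and for 26 of the 32 called lower, with a median of 17.5, against 21.0 for the 9516 tested genes with a window. The 25 include Mt1. At least 10 CG were present in 72.0% of the windows of genes called higher, 69.2% of those called lower and 80.1% of those of all tested genes.

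The genes that fell farthest included 3 that were not detected in either knockout library. Pxdn, peroxidasin, which crosslinks collagen IV in basement membranes, had not a single read (0 counts) in Dnmt3a KO 1 or 2, against 11.1 and 9.16 CPM in WT. That is at least 24.5-fold lower, taking 3 counts over the 2 Dnmt3a KO libraries as the floor (adjusted p = 5.79e-05). Npl, the lyase that cleaves sialic acid, was at 0 counts in Dnmt3a KO 1 and 2 and at 6.96 and 7.54 CPM in WT, at least 17.8-fold lower (adjusted p = 0.000376). Ptprv, a receptor-type protein tyrosine phosphatase, likewise had 0 counts in both and 5.06 and 6.20 CPM in WT, at least 13.9-fold lower (adjusted p = 0.00168). These bounds cover counting error only, because the reads carry no molecular identifiers. In the 6 WT libraries of all batches Pxdn ranged from 9.16 to 47.2 CPM with a median of 14.1, Npl from 4.51 to 9.38 CPM and Ptprv from 3.53 to 6.60 CPM. No WT library lacked any of the 3 transcripts. Ptprv lost its call without Dnmt3a KO 2 (adjusted p = 0.1), and Pxdn and Npl kept theirs under all 13 alternatives run.

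Other genes of chromatin, DNA repair and metabolism fell several-fold without reaching 0. Hmgn3, a nucleosome-binding protein of the HMGN family, was at 5.55 and 3.67 CPM in Dnmt3a KO and at 64.2 and 49.0 CPM in WT (log2 fold change -3.66 ± 0.61, adjusted p = 0.00346). Rad51b, which acts in homologous recombination, was at 35.9 and 15.3 CPM in Dnmt3a KO and at 201 and 138 CPM in WT (-2.77 ± 0.44, adjusted p = 0.00182). Fmo6, a member of the flavin-containing monooxygenase family, was at 4.81 and 2.16 CPM in Dnmt3a KO and at 36.7 and 31.8 CPM in WT (-3.39 ± 0.44, adjusted p = 7.84e-05). None of these groups overlapped. Fmo4, of the same family and with 0 tested genes between it and Fmo6 on chromosome 1, also fell (-2.14 ± 0.37). Slc4a3, an anion exchanger of chloride and bicarbonate, was at 2.22 and 0.432 CPM in Dnmt3a KO and at 11.1 and 10.8 CPM in WT (-3.25 ± 0.53, adjusted p = 0.00135). WT of the other batches had less Slc4a3, with a lowest level of 0.785 and a median over all 6 WT libraries of 1.86 CPM, so that Dnmt3a KO 1 lay inside the range of all WT and Dnmt3a KO 2 below it. Arntl2, a partner of CLOCK in the circadian oscillator, averaged 4.58 ± 1.77 CPM in Dnmt3a KO and 28.1 ± 5.86 CPM in WT (SD, n = 2 each; -2.55 ± 0.41). Klhl1, a kelch-repeat protein best known from neurons, was at 2.59 and 3.24 CPM in Dnmt3a KO and at 16.1 and 19.9 CPM in WT (-2.59 ± 0.52). Leaving out Dnmt3a KO 2 ended the calls of Hmgn3 (-3.34, adjusted p = 0.147), Rad51b (-2.24, adjusted p = 0.0717), Slc4a3 (-2.28, adjusted p = 0.135) and Klhl1 (-2.79, adjusted p = 0.138); Klhl1 was also lost without Dnmt3a KO 1 (-2.47) or WT 6 (-2.43). Rad51b was also lost with batch 3 libraries only (-2.76, adjusted p = 0.128). Additive terms for group and batch ended the calls of Slc4a3 (-2.33, adjusted p = 0.437) and Hmgn3 (-3.39, adjusted p = 0.126). Fmo6 and Arntl2 stayed called under all 13 alternatives, although WT of another batch had as little as 1.98 CPM of Arntl2, below both Dnmt3a KO libraries.

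**Figure D2:**
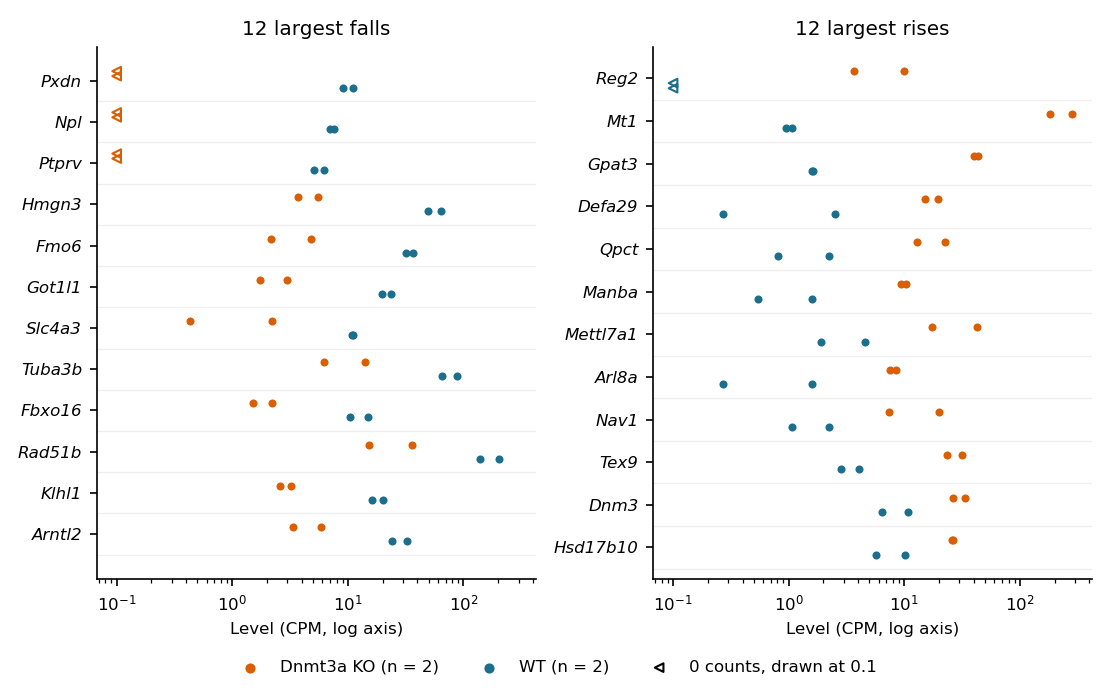
Level of the 12 named genes with the largest falls (left) and the 12 with the largest rises (right) in each of the 4 libraries, in CPM on a log axis; orange is Dnmt3a KO, teal is WT, and open triangles mark 0 counts drawn at 0.1. The 24 genes were chosen for groups that do not overlap, which 33.6% of all genes tested also showed. Pxdn, Npl and Ptprv were at 0 in both Dnmt3a KO libraries.

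The named falls among abundant stored transcripts included 4 of smaller size. Rpl37rt, a retrotransposed copy of a ribosomal protein gene, stood at 78.1 and 66.1 CPM in Dnmt3a KO and at 263 and 221 CPM in WT (log2 fold change -1.75 ± 0.22, adjusted p = 7.51e-05); its reads could be shared with the parent gene. Oog1, an oocyte-specific leucine-rich repeat protein of a multigene family with close copies, stood at 82.1 and 63.7 CPM in Dnmt3a KO and at 221 and 140 CPM in WT (-1.31 ± 0.28, adjusted p = 0.0207). Pebp1, an inhibitor of Raf kinase signalling, was at 138 and 124 CPM in Dnmt3a KO and at 214 and 264 CPM in WT (-0.87 ± 0.19, adjusted p = 0.0290). Sumo3, a small ubiquitin-like modifier, was at 120 and 135 CPM in Dnmt3a KO and at 213 and 239 CPM in WT (-0.82 ± 0.18, adjusted p = 0.0207). Rpl37rt was called under all 13 alternatives. The other 3 were not called in every one: Oog1 was lost without Dnmt3a KO 1 (-1.50), Dnmt3a KO 2 (-1.14) or WT 5 (-0.94), Pebp1 without Dnmt3a KO 1 (-0.95), Dnmt3a KO 2 (-0.79) or WT 6 (-0.71), and Sumo3 without any 1 of the 4 libraries (-0.92 to -0.74). Oog1 was also lost with additive terms (adjusted p = 0.0963). Pebp1 and Sumo3 were lost with batch 3 libraries only (adjusted p = 0.0812 for Pebp1 and 0.108 for Sumo3) and with the compared libraries only (0.310 for Pebp1 and 0.353 for Sumo3). In other batches WT was as low as 75.2 CPM for Oog1 and 100.4 CPM for Sumo3, within reach of the Dnmt3a KO values.

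The rises were led by genes that WT oocytes barely contained. Reg2, a secreted lectin of the pancreatic regenerating family, was detected at 9.99 and 3.67 CPM in Dnmt3a KO and at 0 counts in both WT libraries, at least 13.7-fold higher (adjusted p = 0.0401). It was at 0 in every other library of batch 3 as well. Gpat3, an acyltransferase of glycerolipid synthesis, stood at 40.3 and 43.6 CPM in Dnmt3a KO, against 1.58 and 1.62 CPM in WT (log2 fold change 4.69 ± 0.49, adjusted p = 3.61e-06). Across all 6 WT libraries Gpat3 ranged from 0.361 to 31.6 CPM, and with additive terms for group and batch, which draw on WT of every batch, it was no longer called (2.96, adjusted p = 0.181). Tex9, a gene first described from testis, was at 23.3 and 31.7 CPM in Dnmt3a KO and at 2.85 and 4.04 CPM in WT (2.99 ± 0.56, adjusted p = 0.00490), and at most 4.42 CPM in any of the 6 WT libraries. Its promoter window holds 17 CG. Qpct, the enzyme that forms pyroglutamate at protein N-termini, was at 12.95 and 22.4 CPM in Dnmt3a KO and at 2.21 and 0.808 CPM in WT (3.59 ± 0.67, adjusted p = 0.00490). Reg2 lost its call without any 1 of the 4 libraries (adjusted p = 0.0679 to 0.304) and with batch 3 libraries only (adjusted p = 0.0542), and DESeq2 gave it no adjusted p. Tex9 lost its call without Dnmt3a KO 2 (2.74), WT 5 (2.78) or WT 6 (3.27), and Qpct without Dnmt3a KO 2 (3.12) or WT 6 (3.01).

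The rest of the 12 largest named rises were of enzymes, GTPases, a microtubule-binding protein and a defensin, each at a modest level. Manba, the lysosomal beta-mannosidase, was at 10.4 and 9.28 CPM in Dnmt3a KO and at 1.58 and 0.539 CPM in WT (log2 fold change 3.21 ± 0.69, adjusted p = 0.0207). It stayed at or below 0.738 CPM in all 6 libraries of batch 3 that were neither Dnmt3a KO nor WT. Arl8a, a small GTPase of lysosomes, averaged 8.03 ± 0.68 CPM in Dnmt3a KO and 0.925 ± 0.93 CPM in WT (3.14 ± 0.74), but reached 17.1 CPM in 1 of the 6 WT libraries. Mettl7a1, a methyltransferase-like protein of lipid droplets with close copies in the genome, averaged 29.8 ± 17.6 CPM in Dnmt3a KO and 3.24 ± 1.90 CPM in WT (3.19 ± 0.51). Defa29, an alpha-defensin from a family of near-identical genes, was at 15.2 and 19.4 CPM in Dnmt3a KO and at 2.53 and 0.269 CPM in WT (3.69 ± 0.66). Nav1, a microtubule-binding neuron navigator, averaged 13.7 ± 8.96 CPM in Dnmt3a KO and 1.65 ± 0.80 CPM in WT (3.11 ± 0.71). Dnm3, a dynamin of membrane fission, rose less, to 29.8 ± 4.93 CPM in Dnmt3a KO against 8.61 ± 3.03 CPM in WT (1.79 ± 0.38), while WT of another batch reached 36.1 CPM. Hsd17b10, a mitochondrial dehydrogenase and subunit of mitochondrial RNase P, rose to 26.2 ± 0.11 CPM in Dnmt3a KO against 7.89 ± 3.16 CPM in WT (1.74 ± 0.39). Manba (2.61 to 4.12) and Arl8a (2.32 to 4.76) lost their calls without any 1 of the 4 libraries. Arl8a also lost its call with additive terms (1.87, adjusted p = 0.204) and when both libraries labelled Tet3 KO were left out (0.0663 after adjustment). DESeq2 gave Manba no adjusted p. Mettl7a1 was lost without Dnmt3a KO 2 (2.39) or WT 5 (2.73), Defa29 without Dnmt3a KO 2 (3.49) or WT 6 (2.77), and Nav1 without Dnmt3a KO 2 (2.18), WT 5 (3.69) or WT 6 (2.66). Additive terms ended the calls of Defa29 (2.99, adjusted p = 0.131) and Dnm3 (1.33, adjusted p = 0.102), and leaving out the libraries labelled Tet3 KO that of Nav1 (adjusted p = 0.0605). Dnm3 was lost without Dnmt3a KO 1 (1.62), Dnmt3a KO 2 (1.96) or WT 6 (1.46), and Hsd17b10 without Dnmt3a KO 1 (1.74), Dnmt3a KO 2 (1.75) or WT 6 (1.37).

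The abundant transcripts that rose were few. Ggct, a cyclotransferase of the glutathione cycle, was at 439 and 411 CPM in Dnmt3a KO and at 210 and 176 CPM in WT (log2 fold change 1.14 ± 0.22, adjusted p = 0.00777). Mtfr2, a regulator of mitochondrial fission, was at 242 and 191 CPM in Dnmt3a KO and at 85.7 and 71.1 CPM in WT (1.46 ± 0.26, adjusted p = 0.00303). Both ranges of Dnmt3a KO fell within the span of all 6 WT libraries, which reached 580 CPM for Ggct and 243 CPM for Mtfr2 in other batches. Trip4, a transcriptional coactivator, was at 120 and 134 CPM in Dnmt3a KO and at 53.4 and 60.6 CPM in WT (1.16 ± 0.21, adjusted p = 0.00422), above all 6 WT libraries, which reached 60.6 CPM. Zfp961, a zinc finger protein, was at 91.0 and 104 CPM in Dnmt3a KO and at 33.5 and 46.6 CPM in WT (1.28 ± 0.21, adjusted p = 0.00114), but all 6 WT libraries spanned 30.5 to 115 CPM. Ggct was not called without Dnmt3a KO 1 (1.09) or WT 6 (1.02), Mtfr2 without Dnmt3a KO 1 (1.29) or WT 6 (1.34), Trip4 without Dnmt3a KO 2 (1.07) or WT 5 (1.08), and Zfp961 without WT 5 (1.08). Ggct and Trip4 were also lost with the compared libraries only (adjusted p = 0.0609 each).

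Dnmt3a was the only called gene of the DNA methylation apparatus. Of 35 tested enzymes and partners the other 34 were not called, by edgeR or by DESeq2. An unadjusted p below 0.05 was found for 6 of the 35, against 1187 of all 11794 genes tested. The median log2 fold change was 0.03, against 0.00 for all genes. Dnmt3l, the partner of Dnmt3a, was at 130 and 109 CPM in Dnmt3a KO and at 214 and 178 CPM in WT, so that the groups did not overlap, but the change did not pass (-0.72 ± 0.24, adjusted p = 0.246). Dnmt1, the maintenance methyltransferase, averaged 646 ± 176 CPM in Dnmt3a KO and 725 ± 33.7 CPM in WT (-0.17 ± 0.28), and the groups overlapped. Dnmt3b, the second de novo enzyme, averaged 13.5 ± 2.31 CPM in Dnmt3a KO and 15.9 ± 0.77 CPM in WT (-0.22 ± 0.32). Zfp57, which protects imprints after fertilisation, averaged 720 ± 12.9 CPM in Dnmt3a KO and 979 ± 29.5 CPM in WT (-0.44 ± 0.17, adjusted p = 0.317).

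Among genes known to be controlled by DNA methylation, calls differed from list to list. Of 28 tested imprinted genes whose control region is methylated in the egg, 0 were called by edgeR, with a median log2 fold change of 0.10 and 5 at an unadjusted p below 0.05. DESeq2 called 1 of the 28, H13, which was at 138 and 105 CPM in Dnmt3a KO and at 169 and 199 CPM in WT. Sgce, an imprinted sarcoglycan, had the largest log2 fold change, at 4.07 and 3.24 CPM in Dnmt3a KO and at 0.316 and 0.269 CPM in WT (3.51 ± 0.94, adjusted p = 0.0989). Impact, an inhibitor of the kinase GCN2, had the smallest adjusted p after Sgce, at 13.7 and 34.8 CPM in Dnmt3a KO and at 8.86 and 8.89 CPM in WT (1.47 ± 0.42, adjusted p = 0.132). Both sets of values were separate between groups and neither passed. Of 47 germline genes that somatic cells silence by promoter methylation, 1 rose (Tex9) and 2 fell (Tuba3b and Mael) by edgeR, against 0.534% of all genes called, with a median of 0.09 and 14 at an unadjusted p below 0.05. DESeq2 also called Tuba3a of this list, lower. Of 19 genes of testis and sperm, 1 rose (Tex9) and 2 fell (Got1l1 and Fbxo16) by edgeR, against 0.534% of all genes called. The median of the 19 was 0.36, above that of all genes, and 9 had an unadjusted p below 0.05. DESeq2 also called Calr3 of this list, higher. Over all 11794 genes tested, 1187 had an unadjusted p below 0.05 by edgeR, and DESeq2 called 115. Both lists were written with earlier results of these data known, and Tex9, which is in both, was given for this comparison in advance. Their counts are therefore not independent of the data, and no excess over all genes is read from them. Nothing beyond these counts was tested for either list.

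Both lists held large falls. Tuba3b, an alpha-tubulin best known from testis, was at 14.1 and 6.26 CPM in Dnmt3a KO and at 65.8 and 88.4 CPM in WT (log2 fold change -2.99 ± 0.39, adjusted p = 0.000121). Its near-identical copy Tuba3a was at 602 and 346 CPM in Dnmt3a KO and at 1101 and 975 CPM in WT (-1.13 ± 0.29, adjusted p = 0.0798), and reads could be split between the pair. Got1l1, a relative of cytosolic aspartate aminotransferase, was at 2.96 and 1.73 CPM in Dnmt3a KO and at 19.9 and 23.4 CPM in WT (-3.27 ± 0.44, adjusted p = 0.000121). Fbxo16, an F-box protein, was at 2.22 and 1.51 CPM in Dnmt3a KO and at 14.9 and 10.5 CPM in WT (-2.79 ± 0.47, adjusted p = 0.00168). Mael, a component of the piRNA pathway that silences transposons, was at 98.1 and 74.3 CPM in Dnmt3a KO and at 188 and 141 CPM in WT (-0.93 ± 0.21, adjusted p = 0.0290). Tuba3b and Got1l1 were called under all 13 alternatives, Fbxo16 was lost without Dnmt3a KO 2 (-2.49) and Mael without Dnmt3a KO 2 (-0.74) or WT 5 (-0.71). Mael was also lost with batch 3 libraries only (adjusted p = 0.118) and with the compared libraries only (adjusted p = 0.238).

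Few genes that serve oocyte maturation and early development were called. Of 55 oocyte and maternal-effect genes 1 was called by edgeR, Oog1, and the median log2 fold change was -0.05. None of 48 genes of meiotic maturation (5 at an unadjusted p below 0.05), 39 of maternal mRNA decay and storage (3), 47 histone modifiers (4), 12 of the 2-cell embryo (2), 26 of the p53 response (3) or 33 of stress and chaperones (2) was called by edgeR or by DESeq2, and the medians lay between -0.13 and 0.12. Lists around the strongly changed genes held 1 called member each by edgeR. Pxdn was the only one of 17 tested for basement membrane and collagen crosslinking, with Lamc1, a laminin chain, at 13.5 ± 1.35 CPM in Dnmt3a KO and 30.8 ± 5.56 CPM in WT (-1.20 ± 0.29, adjusted p = 0.0544 by edgeR, and called lower by DESeq2). By edgeR, Npl was the only one of 17 for sialic acid, Manba of 18 lysosomal glycosidases, Rad51b of 32 for homologous recombination and Mael of 27 for transposon and piRNA control. DESeq2 called the same single genes, except that it gave Manba no adjusted p. With about 0.534% of all genes called, counts of 0 and 1 in lists of this size are near the background. An unadjusted p below 0.05 was found for 1187 of all 11794 genes tested.

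**Figure D3:**
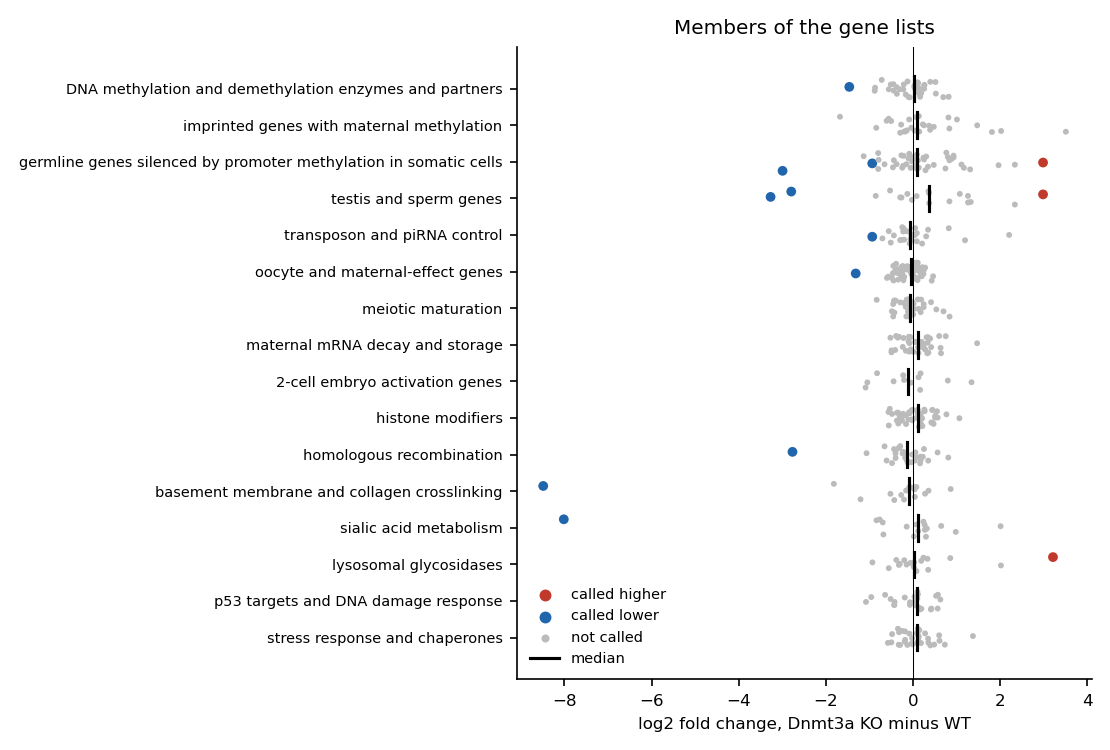
Fitted log2 fold change, Dnmt3a KO minus WT, of every tested member of 16 gene lists; red points were called higher, blue points called lower, grey points not called, and black bars are list medians. Medians lie near 0 for most lists, and called members are single genes such as Pxdn, Npl, Rad51b and Manba; vertical scatter within a list is for display.

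Calls were not spread evenly over the chromosomes, by the RefSeq gene order of GRCm38.p6 (the counts themselves were made on mm9, and only the order was used). Of 62 called genes with a chromosome, 15 were on chromosome 1 (24.2% of the calls, against 5.99% of the tested genes). Chromosome 9 held 9 (14.5% against 5.8%), chromosome 12 held 7 (11.3% against 3.67%), chromosome 8 held 7 (11.3% against 5.75%) and chromosome 6 held 6 (9.68% against 4.89%). Chromosomes 4, 7, 13, 16, 18 and 19 held 0. Of the 62, 28 (45.2%) had another called gene no more than 20 tested genes away. The share that 62 random tested genes would give was not computed. The comparisons of DKO with LCD KO and of Dnmt3a KO with the libraries labelled Tet3 KO gave like shares, 40.3% and 38.8%. The chromosomes differed: DKO minus LCD KO had 11 calls on chromosome 1, 0 on chromosome 9 and 2 on chromosome 12. Dnmt3a KO minus the libraries labelled Tet3 KO had 3, 0 and 0 there. A run on chromosome 1 included Zbtb37 (lower), Gas5 (higher), Dnm3 (higher), Fmo4 (lower) and Fmo6 (lower). Another held Ptprv (lower), Arl8a (higher) and Nav1 (higher), and a further one E330020D12Rik (lower), Npl (lower) and Tor1aip1 (higher). On chromosome 9, Trip4, Csnk1g1 and Aph1b were higher and Gm19299 lower, and Hmgn3, Ube2cbp and Rwdd2a were all lower. Chromosome 12 holds the targeted gene Dnmt3a, and 6 of its 7 calls were lower. The called genes that follow Dnmt3a there are Pdia6 (38 tested genes between), 5730507C01Rik (3 after Pdia6) and Pxdn (26 further), all lower. Whether the floxed Dnmt3a allele or the mouse line had a part in this stretch was not tested. Of the 20 neighbouring pairs, 10 changed in the same direction. These runs were noticed after the values were seen, and without a stated strand setting the reads of overlapping neighbours cannot be told apart.

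Loss of Dnmt3a could be followed a second time in oocytes that all lacked the Tet3 LCD, by setting DKO against LCD KO. This pair shares no library with the first comparison, and both of its groups carry Cre. DKO also carried the floxed Dnmt3a allele, which LCD KO did not. Loss of Dnmt3a, that allele and the mouse line cannot be told apart in this pair either. There 62 genes were called (0.526%), 39 higher in DKO (0.331%) and 23 lower (0.195%). Of the 61 genes called in Dnmt3a KO, 13 were called in the same direction, which is 21.3% of the 61 and 21.0% of the 62, and 1 in the opposite direction. By sign alone 50 of 61 went the same way, against 59.8% of all tested genes. Dnmt3a, the targeted gene, counts among the 13 and among the 50. In DKO minus LCD KO the 29 higher genes had a median of 0.80 on the log2 scale, and in Dnmt3a KO minus WT one of 1.74. The 32 lower genes had medians of -0.47 in DKO minus LCD KO and -2.16 in Dnmt3a KO minus WT. The genes had been selected in the first comparison, so a smaller median in the second is not by itself a smaller effect. Leaving out 1 library of DKO or LCD KO gave 20 to 35 called genes, the fewest without LCD KO 7.

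The genes called in the same direction in both comparisons included a few of the strongest. Tuba3b was at 3.04 and 4.71 CPM in DKO and at 51.5 and 68.1 CPM in LCD KO (log2 fold change -3.97 ± 0.44, adjusted p = 1.01e-05). Got1l1 was at 4.56 and 7.07 CPM in DKO and at 25.7 and 21.3 CPM in LCD KO (-2.03 ± 0.39, adjusted p = 0.0100). Rpl37rt was at 147 and 171 CPM in DKO and at 343 and 319 CPM in LCD KO (-1.06 ± 0.22, adjusted p = 0.0191). All 3 fell in both comparisons with no overlap of groups in either. Gpat3 was at 33.7 and 51.1 CPM in DKO and at 7.94 and 10.3 CPM in LCD KO (2.20 ± 0.38, adjusted p = 0.00347), and Mtfr2 at 520 and 369 CPM in DKO and at 20.7 and 33.6 CPM in LCD KO (4.02 ± 0.29, adjusted p = 3.44e-09). Top3a, a topoisomerase, was the remaining called rise with a regular symbol (1.49 ± 0.27 in Dnmt3a KO minus WT and 1.83 ± 0.28 in DKO minus LCD KO). The other 7 were Dnmt3a itself and the unnamed transcripts 5430427O19Rik, 2610037D02Rik, 7420700N18Rik, 5730507C01Rik, E330012B07Rik and E330020D12Rik. Of these, 5430427O19Rik had 8.88 and 16.0 CPM in Dnmt3a KO and 15.2 and 18.8 CPM in DKO, while WT held 1 count in all and both LCD KO libraries held 0.

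**Figure D4:**
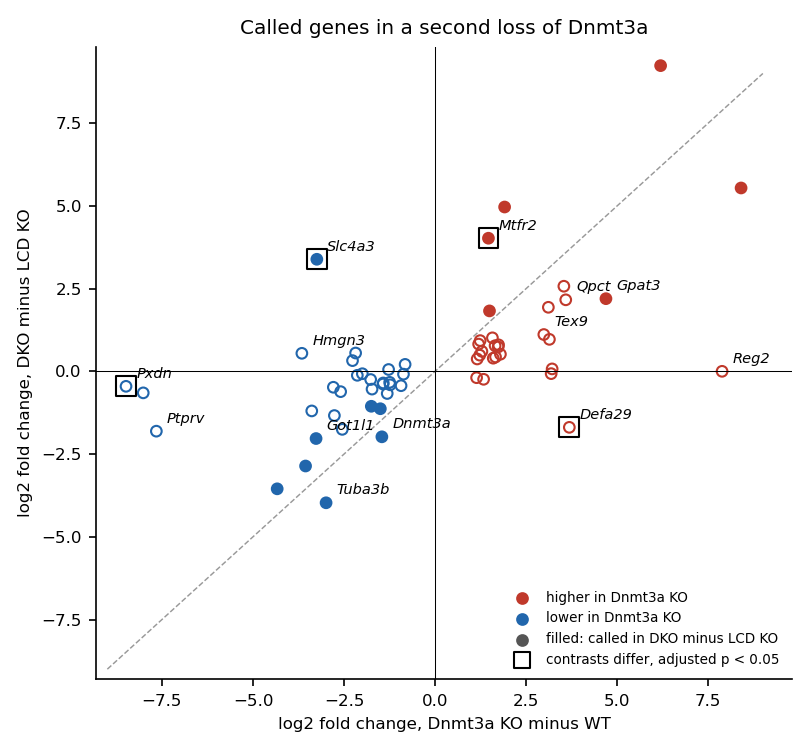
Fitted log2 fold change of the 61 genes called in Dnmt3a KO minus WT (horizontal axis) against DKO minus LCD KO (vertical axis), all in batch 3; red is higher and blue lower in Dnmt3a KO, filled points were also called in DKO minus LCD KO, squares mark genes whose 2 contrasts differ, and the dashed line is equality. Slc4a3 lies in the opposite quadrant, and Pxdn, Npl and Reg2 lie near 0 on the vertical axis.

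For a few genes the 2 comparisons differed by a test of the difference itself, in which the Tet3 LCD, Cre and the mouse line cannot be told apart. This interaction was called for 7 genes (0.0594%), with 566 at an unadjusted p below 0.05, and 2 of the 7 were Mt1 and RGC-CRE, for which WT had no Cre and LCD KO had. Pxdn was at 16.0 and 8.75 CPM in DKO and at 15.2 and 18.9 CPM in LCD KO, so that the transcript undetected in Dnmt3a KO was present in both DKO libraries (difference of log2 fold changes -8.03 ± 1.25, adjusted p = 0.00243; the size depends on the prior count). Slc4a3 was at 25.6 and 44.4 CPM in DKO and at 3.81 and 2.88 CPM in LCD KO, the opposite of its fall in Dnmt3a KO (difference -6.63 ± 0.67, adjusted p = 1.74e-06). Defa29 was at 2.28 and 2.36 CPM in DKO and at 4.45 and 10.3 CPM in LCD KO (difference 5.38 ± 0.92, adjusted p = 0.00801). Mtfr2 rose in both, and more in DKO (difference -2.56 ± 0.38, adjusted p = 0.00117). Ccdc28a, a coiled-coil protein, was at 16.7 and 13.8 CPM in Dnmt3a KO and at 25.9 and 32.6 CPM in WT, not called there (-0.96 ± 0.27, adjusted p = 0.127), while DKO had 51.1 and 53.5 CPM and LCD KO 25.7 and 21.8 CPM (difference -2.10 ± 0.37, adjusted p = 0.0118). Tex9, at 6.08 and 4.04 CPM in DKO and 3.18 and 1.68 CPM in LCD KO, was not called in the second loss (1.11 ± 0.66), and its difference of 1.87 ± 0.89 did not pass either. Npl was low in both groups of the second loss, at 0.760 and 2.69 CPM in DKO and at 2.22 and 2.88 CPM in LCD KO.

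The libraries labelled Tet3 KO had levels near those of Dnmt3a KO at several of these genes. Their Dnmt3a was as low as in Dnmt3a KO and their Tet3 no lower than in WT, so their label is in doubt and no genotype is read from it. Both groups held Mt1 at the level of the Cre carriers, and both are read against the same WT libraries, so only their own values are set beside each other. Pxdn was at 0 and 0 CPM in Dnmt3a KO and at 0.232 and 0 CPM in Tet3 KO 1 and 2 by label, and Npl was at 0 in all 4. Tex9 was at 23.3 and 31.7 CPM in Dnmt3a KO and at 19.3 and 25.6 CPM in those labelled Tet3 KO. Qpct was at 12.95 and 22.4 CPM in Dnmt3a KO and at 20.4 and 22.1 CPM in those labelled Tet3 KO, and Hmgn3 at 5.55 and 3.67 CPM in Dnmt3a KO and at 3.25 and 4.92 CPM in those labelled Tet3 KO. Tested directly, Dnmt3a KO minus the libraries labelled Tet3 KO gave 49 called genes (0.415%), 38 higher in Dnmt3a KO (0.322%) and 11 lower (0.0933%), and 10 of the 61 genes were among them. The 10 include Gpat3, at 40.3 and 43.6 CPM in Dnmt3a KO and at 1.63 and 1.72 CPM in those labelled Tet3 KO (log2 fold change 4.63 ± 0.47, adjusted p = 1.13e-06). Rpl37rt stood at 78.1 and 66.1 CPM in Dnmt3a KO and at 3.25 and 5.66 CPM in those labelled Tet3 KO (4.01 ± 0.28, adjusted p = 8.73e-10). Manba (3.97 ± 0.72), Reg2, Mettl7a1 (3.02 ± 0.49), Defa29 (2.93 ± 0.58) and Ggct (1.10 ± 0.22) were also higher in Dnmt3a KO. Leaving out 1 of the 4 libraries gave 12 to 52 called genes, 12 without Dnmt3a KO 2, 15 without Tet3 KO 1 and 17 without Tet3 KO 2. A gene that misses the threshold here is not shown to have the same level in both groups.

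**Figure D5:**
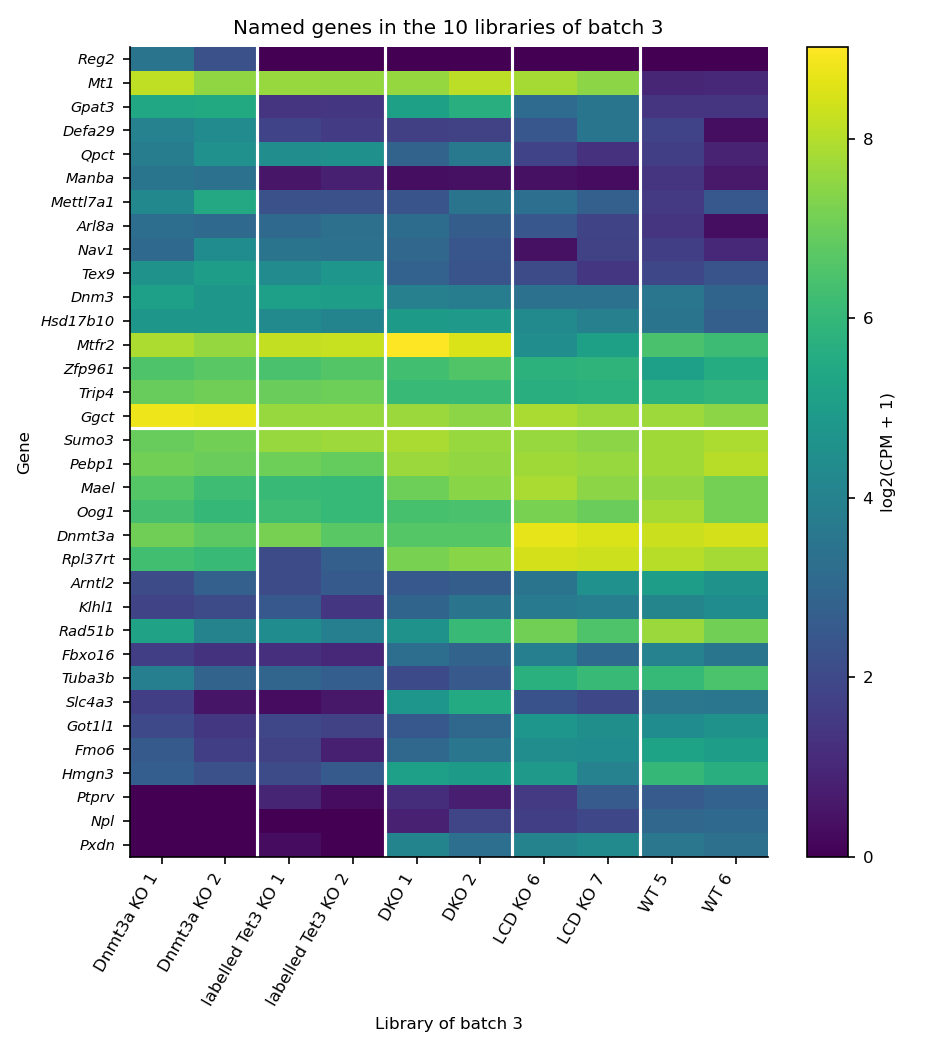
Level of the 34 named genes (rows, rises above and falls below the white line) in the 10 libraries of batch 3 (columns), as log2(CPM + 1). Mt1 is high in every column except WT, whereas Pxdn and Npl are dark in the 4 leftmost columns, Dnmt3a KO and labelled Tet3 KO.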

How the data were processed

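Polyadenylated RNA of pools of 10 GV oocytes was measured in 26 libraries of 7 groups. The deposited values are raw read counts for each gene symbol, which the authors had not normalized. The submitters' processing notes name Trim Galore 0.5.0, HISAT2 2.1.0, featureCounts 1.6.4 and the build mm9. Annotation, strand setting and treatment of reads with more than 1 alignment are not given in the sources used here. Of 24542 features, 92 spike-in sequences were left out; 0 columns lacked a sample.

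edgeR 4.0.16 (R 4.3.3) fitted the counts by quasi-likelihood with TMM factors, filterByExpr by group and robust dispersions. Each group had its own mean in each batch, over 22 libraries whose batch is stated, so that fold changes use batch 3 alone and 12 residual degrees of freedom carry the spread. Calls required an adjusted p (Benjamini-Hochberg over 11794 genes) below 0.05. The comparison was Dnmt3a KO minus WT; DKO minus LCD KO, the difference of both, and Dnmt3a KO minus the libraries labelled Tet3 KO (added after the values were seen) came from the same fit. CPM were computed with TMM factors. A group at 0 was read as 3 counts over its libraries. Alternatives were DESeq2 1.42.0, other filters, factors and models, and leaving out each library. The code was tested on simulated data.

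Named were Dnmt3a, Pxdn and Tex9, every called member of the 23 gene lists, and among called genes with regular symbols, non-overlapping groups and a higher mean of at least 1 CPM, the 12 largest rises, the 12 largest falls and the 5 most abundant in each direction. Genes, lists and tests were chosen with earlier results of these data known.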

Additional observations from a re-analysis of the deposited data

Results flagged for a closer look

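The change from WT to Dnmt3a KO differed from that from LCD KO to DKO for 7 features, by an interaction test over all genes in edgeR (adjusted p below 0.05). Cre, the floxed alleles and the mouse line also differ between WT and Dnmt3a KO. Their part cannot be told apart from that of the Tet3 LCD. The values are the log2 fold change of Dnmt3a KO minus WT less that of DKO minus LCD KO. It was 7.56 for Mt1 and 9.70 for RGC-CRE, where only the WT group lacks Cre. It was 5.38 for Defa29, -8.03 for Pxdn, -6.63 for Slc4a3, -2.56 for Mtfr2 and -2.10 for Ccdc28a. Pxdn was at 0 in both Dnmt3a KO libraries and at 16.0 and 8.75 CPM in DKO. Slc4a3 fell in Dnmt3a KO and rose in DKO.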

How the results depend on the processing

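Of the 34 named genes, 9 stayed called under all 13 alternatives (Dnmt3a, Pxdn, Npl, Fmo6, Got1l1, Tuba3b, Arntl2, Rpl37rt and Mt1), and none of the 34 changed sign. Dnmt3a ranged from -1.62 to -1.31. Additive terms for group and batch called 51 genes higher in Dnmt3a KO, and ended 7 named calls. DESeq2 called 115 (59 higher, 56 lower), and no filter on low counts 210 (140 higher, 70 lower). Leaving out 1 library gave 29 to 62 calls (15 to 33 higher, 14 to 29 lower). The share of higher calls, 49.2% in the fit reported, was 66.7% with no filter, 39.6% without WT 5 and 34.9% without WT 6. The difference between Tet3 backgrounds gave 13 calls with batch 3 only and 13 with the compared libraries only, 27 with DESeq2, 35 with no filter and 4 to 11 without 1 library. DKO minus LCD KO gave 37 with additive terms, 33 with batch 3 only, 122 with no filter and 20 to 35 without 1 library. Dnmt3a KO minus the libraries labelled Tet3 KO gave 32 with additive terms, 17 with the compared libraries only, 85 with DESeq2, 203 with no filter and 12 to 52 without 1 library. The causes were not tested. No paired analysis was possible because the Dnmt3a KO libraries are numbered 1 and 2 and WT of batch 3 5 and 6, so no number is shared. Low levels rest on few counts: Reg2, at 9.99 and 3.67 CPM, on 27 and 17.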

Other observations

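Called genes outside the naming rule, picked here after their values were seen, add further functions in both directions. Among the falls, Alyref2, a copy of an mRNA export adaptor, was at 24.8 and 15.5 CPM in Dnmt3a KO and at 87.9 and 91.9 CPM in WT (log2 fold change -2.18 ± 0.39, adjusted p = 0.00407 in edgeR), though the 6 WT libraries of all batches reached down to 13.2 CPM. Dpp7, a dipeptidyl peptidase, was at 10.4 and 10.8 CPM in Dnmt3a KO and at 40.5 and 32.1 CPM in WT (-1.77 ± 0.26). Rwdd2a was at 14.4 and 16.0 CPM in Dnmt3a KO and at 63.3 and 59.0 CPM in WT (adjusted p = 0.00168), and averaged 54.1 CPM in DKO and 56.9 CPM in LCD KO, where it was not called. Lcp1, an actin-bundling plastin, averaged 31.5 ± 4.84 CPM in Dnmt3a KO and 76.9 ± 5.49 CPM in WT (SD, n = 2 each; log2 fold change -1.28 ± 0.22). Pdia6, a disulfide isomerase of the endoplasmic reticulum, was at 44.0 and 45.1 CPM in Dnmt3a KO and at 90.4 and 121 CPM in WT (-1.25 ± 0.25).

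Among the rises, Csnk1g1, a casein kinase, was at 107 and 98.2 CPM in Dnmt3a KO and at 44.9 and 24.2 CPM in WT (log2 fold change 1.57 ± 0.26, adjusted p = 0.00154). Tor1aip1, a protein of the inner nuclear membrane, was at 29.2 and 45.1 CPM in Dnmt3a KO and at 16.4 and 15.4 CPM in WT (1.24 ± 0.28). Aph1b, a subunit of gamma-secretase, averaged 22.4 ± 7.66 CPM in Dnmt3a KO and 9.03 ± 0.199 CPM in WT (1.33 ± 0.30). Xlr4a, an X-linked gene with close copies, was at 61.8 and 55.5 CPM in Dnmt3a KO and at 31.9 and 19.4 CPM in WT (1.20 ± 0.26). Gas5, a host of small nucleolar RNAs, was at 22.2 and 17.1 CPM in Dnmt3a KO and at 6.96 and 5.93 CPM in WT (adjusted p = 0.0474 in edgeR). The calls of these 10 genes were not followed through the alternatives.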
